A study of Mus musculus with 12 samples.

Results

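The genes described here are 9 liver genes of alcohol, aldehyde and retinoid metabolism, namely the alcohol dehydrogenases Adh1, Adh4 and Adh5, the aldehyde dehydrogenases Aldh1a1, Aldh1a7, Aldh1b1, Aldh2 and Aldh3a2, and the plasma retinol carrier Rbp4. They were taken by symbol from a table of 55401 genes. All 9 passed the filter on low counts, which left 13205 genes for testing. RNA-seq had been performed on livers of 15-week-old female mice, 6 of them iTgMir483 and 6 littermate controls, with 1 library per mouse. The iTgMir483 mice carried 1 copy of an inducible Mir483 transgene at the Rosa26 locus. The transgene is a Tet-off design, silent while doxycycline is given. In the study's postnatal design, doxycycline was given in the drinking water during pregnancy and then withdrawn. CMV-Cre had been used to remove a selection cassette, and in the cross described it came from homozygous mothers, so the controls would carry it too. CMV-Cre acts in all tissues, so the livers came from mice with the transgene throughout the body, and a difference cannot be assigned to hepatocytes alone. Both genotypes were on a C57BL/6J background and ate standard chow.

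Alcohol dehydrogenases oxidise alcohols, including ethanol and retinol, to aldehydes, and aldehyde dehydrogenases oxidise those aldehydes to acids. Ethanol thus becomes acetaldehyde and then acetate, whereas retinol becomes retinaldehyde and then retinoic acid, the ligand of the nuclear receptors RAR. The liver is the main site of ethanol oxidation and the main store of retinol, which leaves hepatocytes bound to RBP4 and transthyretin.

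Mir483 lies within Igf2 and gives 2 mature microRNAs, printed here because pairing of their seed, bases 2 to 8, with a messenger RNA is how a microRNA finds its targets. The sequences are from RefSeq (GRCm38.p6, chr7:142654932-142654952 and chr7:142654968-142654989, minus strand), with the seed in capitals.
miR-483-3p: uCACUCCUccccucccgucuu
miR-483-5p: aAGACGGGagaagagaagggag
The letters that pair with these seeds are AGGAGTG for miR-483-3p and CCCGTCT for miR-483-5p, searched on the transcript strand of the longest annotated 3′ UTR of each gene. Aldh1b1 was the 1 member of 9 to hold the miR-483-3p letters, at bases 281 to 287 of its 581-base 3′ UTR, in exon 2 of 2 (chr4:45804304-45804310, GRCm38, plus strand). The match is in capitals below and is followed by an A.
Aldh1b1 site: ccataaaaAGGAGTGatgggctg
Among the tested genes with an annotated 3′ UTR, 1523 of 12098 (12.6%) held these letters. None of the 9 members held the miR-483-5p letters, which were present in 394 of the 12098 (3.26%).

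Total counts ranged from 12244123 to 30431286 in the controls and from 12415140 to 15846175 in iTgMir483. Mir483 was at 0 counts in every control library and at 23.3 to 54.3 CPM in iTgMir483, so all libraries matched their labels. These are reads of poly(A) libraries on the 73-base Mir483 gene, and they do not measure the mature microRNAs. CPM are counts scaled for sequencing depth, here with TMM library sizes. The replicate 1 library of each group stood apart from the other libraries on the second principal component of all tested genes, with scores of 46.4 (Control) and 40.7 (iTgMir483) against -16.7 to 2.9 in the other 10. This component held 16% of the variance. Several members moved with it: Adh1, Adh4, Aldh1a1 and Aldh1a7 were highest, and Rbp4 lowest, in replicate 1 of both groups. The results for the members are therefore also given without these 2 libraries, and the counts of the gene lists where they then changed.

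Per length of exonic sequence, Rbp4 was the most abundant member in the control livers (3213 ± 710 RPKM, that is CPM per kilobase of exon, SD, n = 6). Adh1 followed at 654 ± 134 RPKM, Aldh2 at 404 ± 33.7 RPKM and Aldh1a1 at 215 ± 34.5 RPKM. On these lengths, the control ranges of Rbp4 and Adh1 did not overlap, nor did those of Adh1 and Aldh2 or of Aldh2 and Aldh1a1. Below Aldh1a1 the order was Aldh3a2, Aldh1a7, Adh5, Adh4 and Aldh1b1, and each gene's range overlapped that of the next. The length of a gene covers the exons of all its annotated transcripts, and was 5408 bases for Adh5 and 4937 bases for Aldh1a1. The protein-coding transcripts of Adh5 and Aldh1a1 held only 1555 and 2344 different stretches of 50 bases. The places of Adh5 and Aldh1a1, and the lack of overlap of Aldh2 and Aldh1a1, thus depend on the length used. Aldh1b1 was the least abundant at 29.6 ± 7.54 RPKM. In iTgMir483 Aldh1b1 was no longer last in most livers, since Adh4 exceeded it in 1 of 6 mice, compared with 4 of 6 controls. The 9 members together took 0.993 ± 0.0744% of all counts in controls and 0.892 ± 0.151% in iTgMir483.

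**Figure D1:**
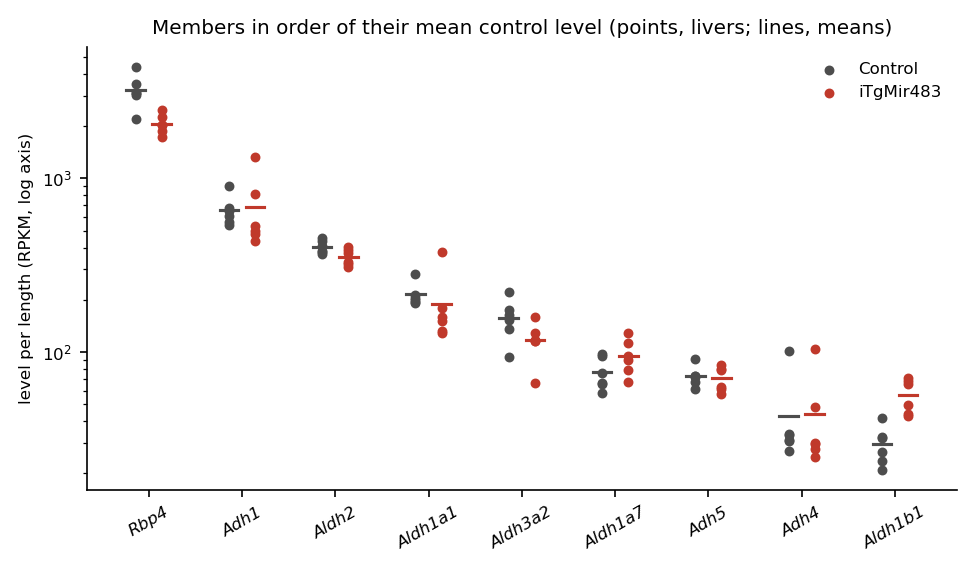
Level of each member per length of all its annotated exons (RPKM, log axis), with the genes in order of their mean level in controls. Points are livers, grey for Control and red for iTgMir483, and short lines are group means. Rbp4 lies above all other members in both groups. Aldh1b1 has the lowest mean in controls, where its range overlaps that of Adh4. In iTgMir483 it lies within the range of Adh4 (43.1 to 70.6 against 24.8 to 104 RPKM).

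Of the 9 members, 1 was higher in iTgMir483 (Aldh1b1) and 1 was lower (Rbp4) at an adjusted p under 0.05. Over all 13205 genes tested, 11.3% were higher and 7.33% lower, 18.6% in either direction. Both members also passed a fold change of 1.5, as did 11.1% of all genes. For 1 member, Aldh1b1, the 2 groups did not overlap, which held for 7.92% of all genes. With so few members, these counts were near the background. The median log2 fold change of the members was -0.04, against 0.01 over all genes, and their range was -0.64 to 0.94. Whole liver was sequenced, so fewer cells of a type and less RNA per cell cannot be told apart.

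**Figure D2:**
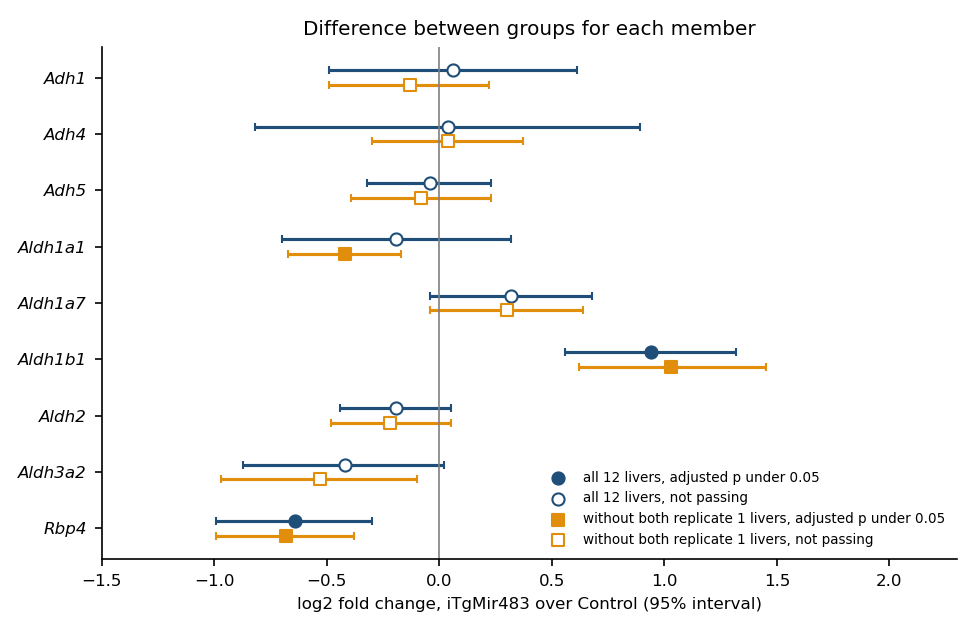
Log2 fold change of each member, iTgMir483 over Control, with its 95% interval. Circles use all 12 livers and squares leave out both replicate 1 livers, and filled symbols mark an adjusted p under 0.05. Aldh1b1 and Rbp4 are filled both ways, and Aldh1a1 is filled only without the replicate 1 livers.

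Of 12 macrophage markers, 10 were higher in iTgMir483. Their summed level was 367 to 531 CPM in controls and 564 to 1573 CPM in iTgMir483, with no overlap. Of 6 tested bile duct markers, 3 were higher (39.1 to 63.6 CPM in controls and 75.5 to 116 CPM in iTgMir483, over 8 markers). Hepatocyte markers were present in every liver, at 141426 to 192649 CPM in controls and 83089 to 159972 CPM in iTgMir483, and 1 of 10 was higher and 2 were lower. Of 11 genes typical of periportal hepatocytes, 6 were lower (18302 to 26133 CPM against 8924 to 17432 CPM) and none was higher. Of 13 pericentral genes, 3 were lower (14433 to 17270 CPM against 10915 to 15056 CPM) and none was higher. Stellate cells store retinyl esters, and 2 of their 12 markers were higher (611 to 790 CPM against 691 to 818 CPM). Of 10 sinusoidal endothelium markers 1 was higher (528 to 629 CPM against 476 to 633 CPM), and of 9 tested blood cell markers 3 were higher (146 to 254 CPM against 101 to 414 CPM). The 6 adipocyte markers, of interest because adipocytes also make Rbp4, summed to at most 2.34 CPM in any liver, and Adipoq, Plin1, Cfd, Lep, Retn and Cidea each reached 0 in at least 1 iTgMir483 liver. Without the replicate 1 libraries the pericentral genes gave 1 higher and 5 lower, the stellate markers 3 higher and the blood cell markers 4 higher, and the counts of the other marker lists were as above. The part of cell composition or zonation in the results for Aldh1b1 and Rbp4 was not tested.

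**Figure D3:**
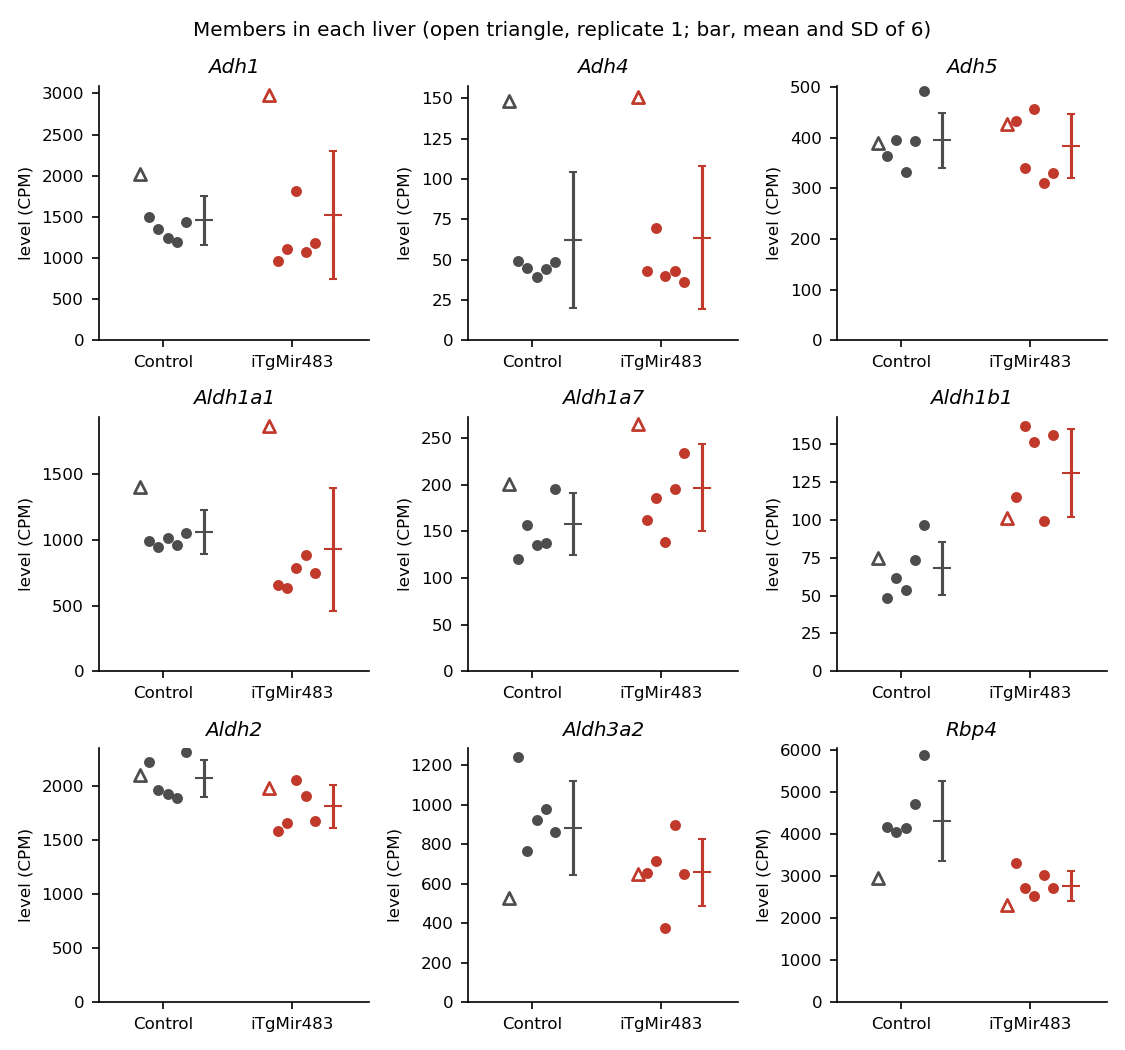
Level of each member in each liver (CPM, axes from 0). Open triangles are replicate 1 of each group, filled points the other 5, and the bars show the mean and SD of 6. The 6 iTgMir483 livers lie above all controls for Aldh1b1, 4 of 6 lie below all controls for Rbp4, and the triangles are at the top for Adh1, Adh4, Aldh1a1 and Aldh1a7.

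Adh1, Adh4 and Adh5 lie on one strand of a single gene cluster (chr3:138260991-138290698, chr3:138415466-138430892 and chr3:138443093-138455499, plus strand, GRCm38), which spans 194509 bases from the start of Adh1 to the end of Adh5. Adh1 encodes the class I enzyme, which carries most ethanol oxidation in liver. Its level was 1200 to 2026 CPM in controls (median 1394) and 970 to 2979 CPM in iTgMir483 (median 1146). The iTgMir483 range enclosed that of the controls, and the top library of each group was replicate 1. The log2 fold change was 0.06 ± 0.259 (SE, 95% interval -0.49 to 0.61, adjusted p = 0.897). Without the replicate 1 libraries it was -0.13 (adjusted p = 0.611), so the data set no direction for Adh1.

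Adh4 encodes the class II enzyme. Replicate 1 reached 148 CPM in Control and 151 CPM in iTgMir483, whereas the other livers held 39.3 to 49.0 CPM and 35.9 to 69.6 CPM, respectively. Replicate 1 was thus 3.27 and 3.55 times the median of the other livers of its group, the largest such ratios of the 9 members. The groups overlapped, and the log2 fold change was 0.04 ± 0.4 (95% interval -0.82 to 0.89, adjusted p = 0.963). Leaving out both replicate 1 libraries kept it at 0.04 and narrowed the interval to -0.3 to 0.37.

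Adh5 encodes the class III enzyme, which oxidises the glutathione adduct of formaldehyde and reduces S-nitrosoglutathione. It was the least variable of the alcohol dehydrogenase members, at 333 to 493 CPM in controls and 310 to 457 CPM in iTgMir483, so the groups overlapped almost fully. Its log2 fold change was -0.04 ± 0.13 (95% interval -0.32 to 0.23, adjusted p = 0.846). Within the same cluster, Adh7 reached 1.82 to 6.13 CPM, and Adh6a and Adh6b had at most 2 and 8 counts in any library and were not tested. The coding sequences of Adh1, Adh4 and Adh5 were 62.8% to 66.1% identical to each other and their transcripts shared no stretch of 50 bases, so reads of that length could not be exchanged between them.

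Aldh1a1 and Aldh1a7 are cytosolic enzymes. ALDH1A1 oxidises retinaldehyde to retinoic acid, whereas Aldh1a7 is a close rodent paralog. They lie 49487 bases apart on opposite strands (Aldh1a1 chr19:20492715-20643465, plus strand, and Aldh1a7 chr19:20692953-20727562, minus strand). Their coding sequences were 91.7% identical. Their protein-coding transcripts shared 151 stretches of 50 bases (6.44% of those of Aldh1a1 and 7.49% of those of Aldh1a7). Neither shared any with another protein-coding gene, and pseudogenes and noncoding genes were not searched. A small part of the reads of each could therefore have been assigned to the other or left out.

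The likeness of the pair extended to the promoters, which are shown for that reason. RefSeq (GRCm38.p6) lists 2 promoters for Aldh1a1, each of 250 bases before and 50 bases after a start. The one inside the annotated gene (chr19:20601718-20602017, plus strand) was 70.4% identical to that of Aldh1a7 (chr19:20727507-20727806, minus strand) over an alignment of 318 columns, with a run of 65 identical bases. The upstream one was 50.6% identical to it, with no run over 5 bases. Capitals mark CCAAT, found in both, and the motifs named TATAAA and GTTAAT, found in Aldh1a7.
Aldh1a1 promoter: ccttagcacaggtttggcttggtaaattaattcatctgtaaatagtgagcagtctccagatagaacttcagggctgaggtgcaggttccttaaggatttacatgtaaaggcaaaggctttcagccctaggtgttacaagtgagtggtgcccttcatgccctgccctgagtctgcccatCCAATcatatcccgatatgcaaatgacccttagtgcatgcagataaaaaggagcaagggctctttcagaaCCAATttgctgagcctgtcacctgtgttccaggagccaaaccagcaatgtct
Aldh1a7 promoter: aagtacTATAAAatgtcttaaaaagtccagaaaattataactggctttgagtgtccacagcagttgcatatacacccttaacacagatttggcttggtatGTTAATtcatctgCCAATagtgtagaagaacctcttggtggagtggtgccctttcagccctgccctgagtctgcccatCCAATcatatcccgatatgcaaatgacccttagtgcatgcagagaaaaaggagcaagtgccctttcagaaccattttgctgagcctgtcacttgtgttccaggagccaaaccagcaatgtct
Both hold CCAAT at position -72 from the start. A second CCAAT lies at -2 in Aldh1a1, where Aldh1a7 has no match, and at -137 in Aldh1a7.

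Aldh1a1 was at 944 to 1399 CPM in controls (median 1001) and 636 to 1864 CPM in iTgMir483 (median 765). In iTgMir483, replicate 1 held the highest value of all 12 livers and the other 5 lay below every control. With all livers the log2 fold change was -0.19 ± 0.24 (95% interval -0.7 to 0.32, adjusted p = 0.616). Without the iTgMir483 replicate 1 library it was -0.52 ± 0.137 (adjusted p = 0.0177), and without both replicate 1 libraries it was -0.42 ± 0.116 (adjusted p = 0.0217). Whether Aldh1a1 was called lower thus rested on 1 library.

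Aldh1a7 was at 120 to 201 CPM in controls (median 147) and 138 to 265 CPM in iTgMir483 (median 190). The groups overlapped, and the log2 fold change was 0.32 ± 0.17 (95% interval -0.04 to 0.68, adjusted p = 0.206). It was 0.3 without the replicate 1 libraries (adjusted p = 0.201).

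The ratio of the 2 paralogs needs no scaling between libraries. The share of Aldh1a7 in the summed counts of Aldh1a1 and Aldh1a7 was 12.6%, 10.8%, 14.3%, 11.8%, 12.5% and 15.6% in control replicates 1 to 6. In iTgMir483 it was 12.4%, 19.7%, 22.6%, 15.0%, 18.1% and 23.9%. Of the iTgMir483 livers, 4 of 6 lay above every control, and replicate 1 lay within the controls. The means were 12.9 ± 1.73% and 18.6 ± 4.39%, a difference of 5.7 percentage points (two-sided exact permutation test over all assignments of the 12 livers, p = 0.0195, where the smallest possible p is 0.0022). The difference was 6.87 points without the replicate 1 libraries (exact permutation p = 0.0159). In a test that permuted only within replicate numbers, p was 0.0625 by exact permutation. Each of these further tests had fewer assignments, so its smallest possible p was above 0.0022.

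**Figure D4:**
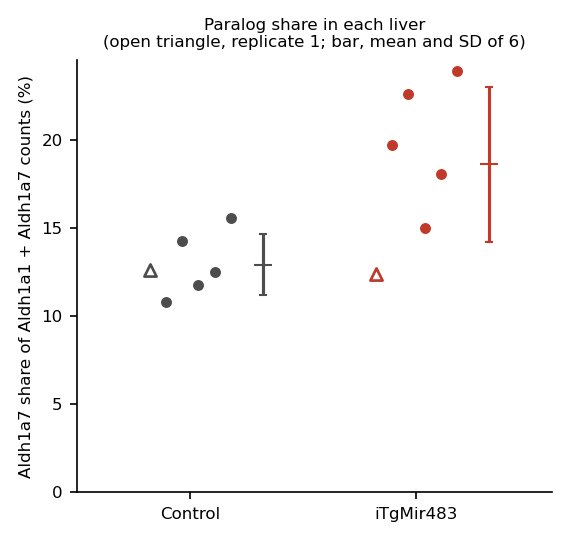
Share of Aldh1a7 in the summed counts of Aldh1a1 and Aldh1a7 in each liver (percent, axis from 0). Open triangles are replicate 1, filled points the other livers, and bars the mean and SD of 6. The controls lie between 10.8% and 15.6%, and the iTgMir483 livers between 12.4% and 23.9%.

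Aldh1b1 and Aldh2 are mitochondrial enzymes that oxidise acetaldehyde, and ALDH1B1 also accepts retinaldehyde. Their coding sequences were 70.2% identical and shared no stretch of 50 bases. Aldh1b1 (chr4:45799022-45804604, plus strand) was at 74.6, 48.3, 61.4, 53.9, 73.7 and 96.2 CPM in control replicates 1 to 6. In iTgMir483 it was at 101, 115, 162, 151, 99.0 and 156 CPM. Every iTgMir483 liver was above every control. The means were 68.0 ± 17.3 and 131 ± 28.9 CPM, a log2 fold change of 0.94 ± 0.178 (95% interval 0.56 to 1.32, 1.92-fold, adjusted p = 0.00317). Aldh1b1 was also the single member with the miR-483-3p letters in its 3′ UTR, and the part of that match in its level was not tested. Without the replicate 1 libraries the log2 fold change was 1.03 (adjusted p = 0.00314).

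Aldh2, the main enzyme of acetaldehyde clearance (chr5:121566027-121593824, minus strand), varied least among the 9 members, with a coefficient of variation of 8.33% in controls and 10.8% in iTgMir483. It was at 1887 to 2317 CPM in controls (median 2036) and 1586 to 2055 CPM in iTgMir483 (median 1795). Of the iTgMir483 livers, 3 of 6 were below every control. The log2 fold change was -0.19 ± 0.116 and did not pass (95% interval -0.44 to 0.05, adjusted p = 0.265). Per length, Aldh2 was at 404 and 354 RPKM and Aldh1b1 at 29.6 and 56.8 RPKM in Control and iTgMir483, so Aldh2 remained the more abundant transcript of the mitochondrial pair.

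Aldh3a2 encodes the microsomal fatty aldehyde dehydrogenase (chr11:61223417-61267464, minus strand). It was at 528 to 1244 CPM in controls (median 893) and 375 to 899 CPM in iTgMir483 (median 655). Replicate 1 was the lowest control, which was not so in iTgMir483. The log2 fold change was -0.42 ± 0.21 (95% interval -0.87 to 0.02, adjusted p = 0.174), and without the replicate 1 libraries it was -0.53 ± 0.202 (adjusted p = 0.0787). Neither passed.

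Rbp4 (chr19:38116629-38125281, minus strand) was the member that fell. Control replicates 1 to 6 were at 2955, 4160, 4043, 4153, 4708 and 5871 CPM. The iTgMir483 livers were at 2313, 3305, 2712, 2528, 3021 and 2719 CPM. Of these, 4 of 6 were below every control, and the groups overlapped only through control replicate 1, the lowest control. The means were 4315 ± 954 and 2766 ± 353 CPM, a log2 fold change of -0.64 ± 0.162 (95% interval -0.99 to -0.3, 0.641-fold, adjusted p = 0.0141). Without the replicate 1 libraries it was -0.68 (adjusted p = 0.00562). Transthyretin (Ttr), which travels with RBP4 in plasma, was at 4432 ± 939 and 3887 ± 764 CPM (log2 fold change -0.19, adjusted p = 0.497). The difference between the changes of Rbp4 and Ttr was not tested.

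The promoters of the 2 members that passed are printed with their motif matches. They are from RefSeq (GRCm38.p6), for Aldh1b1 chr4:45798772-45799071 (plus strand) and for Rbp4 the one of 2 that holds TATAAA, chr19:38124762-38125061 (minus strand). Capitals mark the motif matches, where ATTGG is CCAAT on the other strand.
Aldh1b1 promoter: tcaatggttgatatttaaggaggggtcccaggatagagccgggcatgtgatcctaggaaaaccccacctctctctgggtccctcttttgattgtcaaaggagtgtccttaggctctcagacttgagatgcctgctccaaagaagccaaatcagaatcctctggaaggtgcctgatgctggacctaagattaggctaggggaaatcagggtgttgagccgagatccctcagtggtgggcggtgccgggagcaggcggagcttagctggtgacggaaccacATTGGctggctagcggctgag
Rbp4 promoter: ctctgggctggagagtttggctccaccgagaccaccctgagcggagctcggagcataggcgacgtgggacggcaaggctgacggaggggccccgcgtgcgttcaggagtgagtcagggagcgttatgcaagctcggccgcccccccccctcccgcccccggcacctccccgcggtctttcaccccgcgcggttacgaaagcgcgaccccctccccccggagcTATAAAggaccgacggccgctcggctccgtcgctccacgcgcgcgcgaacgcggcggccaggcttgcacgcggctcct
The motifs, each given by its letters in the next sentences, were searched on both strands, and Aldh2 had no entry. CCAAT was present in 6 of the 11 promoters listed for 8 members, and in 37.4% of all 32851 promoters. TATAAA was present in 1 promoter each of Adh5, Aldh1a7 and Rbp4 (13.6% of all promoters). Its position from the start was -207 in Adh5, -244 in Aldh1a7 and -28 in Rbp4. AGGTCA, the half-site bound by retinoid receptors among other nuclear receptors, was present for Adh4 alone, at -133 and -11 (16.3% of all promoters). GTTAAT was present for Aldh1a7 (7.1% of all promoters).

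Other genes of these pathways were read from lists of the same families. Beside the counts of these lists, 18.6% of all genes tested passed in either direction. Of 4 further alcohol dehydrogenases, 2 were tested and neither passed. Of 16 further aldehyde dehydrogenases, 12 were tested, 2 were higher and none was lower. Both were of the ALDH3B family, Aldh3b1 (2.35 ± 0.519 and 4.41 ± 1.18 CPM, log2 fold change 0.91, adjusted p = 0.00757) and Aldh3b3 (0.918 ± 0.853 and 3.38 ± 1.56 CPM, log2 fold change 1.86, adjusted p = 0.0219). Both were low, at 21 to 89 counts per library for Aldh3b1 and 2 to 75 for Aldh3b3. Another gene of that family had at most 5 counts and was not tested. The median log2 fold change of the 12 was 0.04, and Aldh3b1 and Aldh3b3 passed again without the replicate 1 libraries.

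Of 15 other enzymes of ethanol, aldehyde and acetate metabolism, 13 were tested, 3 were higher and 1 was lower (median -0.06). The higher ones were aldo-keto reductases of the AKR1B family, which reduce aldehydes to alcohols. Akr1b7 rose from 0.981 ± 0.36 to 3.62 ± 1.66 CPM (log2 fold change 1.86, adjusted p = 0.00254) and Akr1b10 from 2.37 ± 0.305 to 4.01 ± 0.941 CPM (0.75, adjusted p = 0.00974). The third, Akr1b3, passed with a log2 fold change of 0.54 (adjusted p = 0.0483). Akr1b8, of the same family, was at 4.16 ± 0.636 and 3.37 ± 0.908 CPM and did not pass (-0.3, adjusted p = 0.285). These reductases are close paralogs, so reads could be shared among them. Cyp2e1, the microsomal ethanol oxidase, fell from 10805 ± 1094 to 8042 ± 810 CPM (-0.43, adjusted p = 0.0404). Without the replicate 1 libraries these 4 genes passed again, and catalase (Cat) also passed as lower (-0.54, adjusted p = 0.00534).

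Of 22 genes of retinol transport, storage and oxidation, 20 were tested, 3 were higher and 2 were lower (median -0.12). Bco1, which cleaves beta-carotene to retinaldehyde, rose from 8.26 ± 1.43 to 19.3 ± 7.81 CPM (log2 fold change 1.22, adjusted p = 0.00332). The retinol dehydrogenases Rdh11 and Rdh5 also rose. Rdh11 was at 21.1 ± 5.77 and 43.3 ± 19.1 CPM (1.04, adjusted p = 0.01). Rdh5 was at 9.33 ± 2.98 and 17.0 ± 4.35 CPM (0.88, adjusted p = 0.0117). Rdh7, a more abundant retinol dehydrogenase, fell from 1202 ± 116 to 861 ± 91.6 CPM (-0.48, adjusted p = 0.00974). Hsd17b6, which oxidises retinol and steroids, fell from 187 ± 48.2 to 83.7 ± 43.9 CPM (-1.16, adjusted p = 0.0127). Lrat, which esterifies retinol for storage, was at 15.8 ± 2.25 and 16.3 ± 2.39 CPM (0.04, adjusted p = 0.84). Of 14 genes of retinoic acid signalling and breakdown, 11 were tested. Rarg, a retinoic acid receptor, was the 1 that passed (0.33, adjusted p = 0.0428), and the median was 0.17. Without the replicate 1 libraries Rarg no longer passed (0.35, adjusted p = 0.0657), whereas Rarb (0.5, adjusted p = 0.0402) and Cyp26b1, which breaks down retinoic acid (-1.47, adjusted p = 0.0206), did. In the list of retinol transport, storage and oxidation the 5 genes passed again, and Rdh16 (-0.48, adjusted p = 0.0105) and Dhrs4 (-0.35, adjusted p = 0.036) were also lower.

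**Figure D5:**
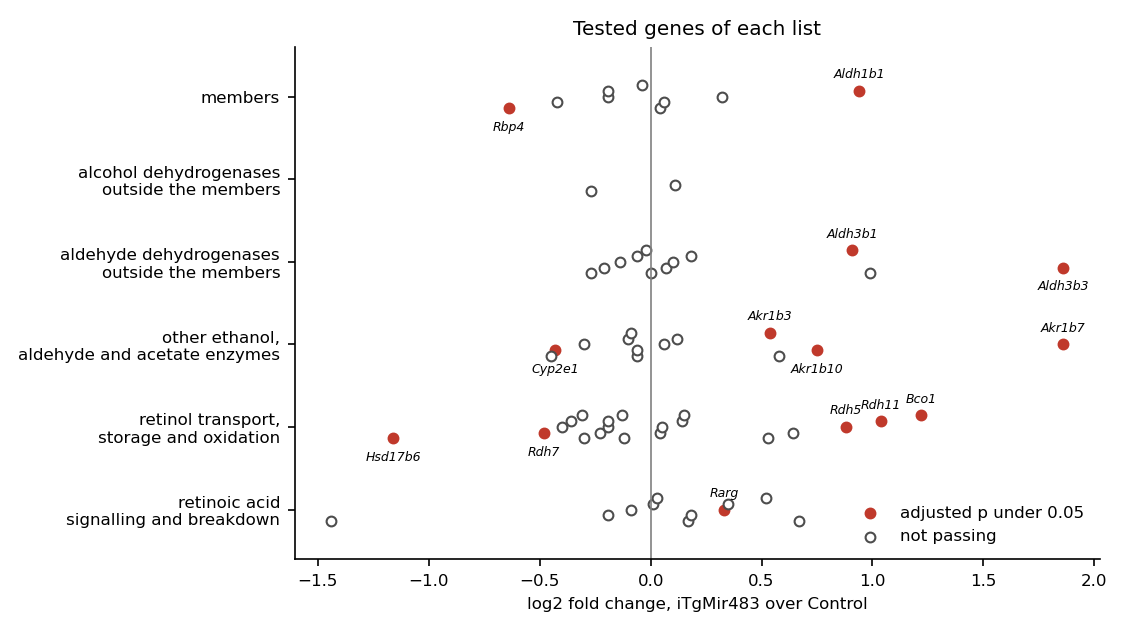
Log2 fold change, iTgMir483 over Control, of each tested gene of the 9 members and of 5 lists of related genes. Red points passed an adjusted p under 0.05 and are named, and open points did not. Among the further aldehyde dehydrogenases 2 of 12 are red, and among the genes of retinol transport, storage and oxidation 5 of 20, on both sides of 0.

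Across the 12 livers the members varied in different company. Correlations were taken between deviations from the group means on the log2 scale and are descriptive, since the points share libraries and depth. Adh1 and Aldh1a1 varied together (Pearson r = 0.88), but r was 0.33 without the replicate 1 libraries. Adh1 and Adh4 went from 0.75 to -0.15, and Adh4 and Aldh1a1 from 0.77 to -0.52. Adh1 and Aldh2 instead went from 0.66 to 0.77. Aldh1b1 and Rbp4 had r = 0.19.

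The genes most like each member other than Aldh2 over the 12 livers were as follows, with r without replicate 1 in parentheses. They were picked as the highest r among the 13205 genes tested, so the pick itself gives high values. The values in parentheses reuse 10 of the same livers and are no independent check. How high r would be from the pick alone was not tested. For Adh1 they were the glycolytic and lipogenic enzymes Pklr at 0.96 (0.93) and Fasn at 0.95 (0.85). For Adh4 they were Stom at 0.96 (0.67) and Abca2 at 0.96 (0.61). For Adh5 they were Park7 at 0.95 (0.96) and Ttc36 at 0.92 (0.92). For Aldh1a1 the nearest was the gene ENSMUSG00000118516 at 0.95 (0.68), followed by Ugdh at 0.94 (0.82). Aldh1a7 was nearest to Cutal at 0.9 (0.84) and Tmem129 at 0.9 (0.89). Aldh1b1 was nearest to 5430405H02Rik at 0.89 (0.9) and Taf9b at 0.88 (0.86). Aldh3a2 was nearest to Cyp2a22 at 0.92 (0.96) and Rad23b at 0.9 (0.86). Rbp4 was nearest to Slc25a3, the mitochondrial phosphate carrier, at 0.96 (0.91) and Cops5 at 0.94 (0.86). The likeness of Adh4 to its nearest genes thus fell most when the replicate 1 libraries were left out.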

How the data were processed

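The authors deposited unnormalised counts of reads per Ensembl gene, made from poly(A) libraries by alignment to GRCm38 with STAR. Which strand column was deposited is not given in the sources used here. Genes overlapping on the opposite strand reached at most 126 counts (Gm16559, with Adh1). The 9 members and all lists were chosen with earlier results of these data known. Counts of 6 iTgMir483 and 6 Control livers were fitted with edgeR 4.0.16 (R 4.3.3; filterByExpr, TMM, quasi-likelihood F-test, no covariate), with Benjamini-Hochberg adjustment over 13205 genes. SEs were derived from the F statistic. The fit was tested on simulated data. RPKM used the length of all annotated exons of a gene, with overlaps counted once, from GENCODE M21 (GRCm38). Depth was 12244123 to 30431286 counts per library. Alternatives were RLE scaling, other filters, DESeq2 1.42.0, limma-voom (limma 3.58.1), a replicate block and left-out libraries. The list counts without both replicate 1 libraries were added after seeing the data. Named were all members, Mir483, genes of each list past adjusted p 0.05 with a fold over 1.5 (up to 5 per direction), and the 2 genes most like each member (not reported here for Aldh2). Ttr, Lrat, Rdh7, Cyp2e1, Akr1b3, Rarg, Adh6a, Adh6b, Adh7, the adipocyte markers, Akr1b8, Cat, Rarb, Cyp26b1, Rdh16 and Dhrs4 were named after their values were seen. No 2 libraries of the same group agreed within sampling noise, and pairs across groups were not compared.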

Additional observations from a re-analysis of the deposited data

Results flagged for a closer look

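Of 20 groups of 6 livers compared (the 9 members and the Aldh1a7 share, in both genotypes), 5 held a liver whose gap to its nearest neighbour, as a share of the group's range, was over Dixon's 95% critical value, where chance gives about 1. All 5 were replicate 1 and all were the highest value. The gap was 0.634 of the range for Adh1 in Control, 0.91 for Adh4 in Control, 0.709 for Adh4 in iTgMir483, 0.755 for Aldh1a1 in Control and 0.8 for Aldh1a1 in iTgMir483. The groups share these 2 livers, so the 5 are not independent.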

How the results depend on the processing

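Aldh1b1 stayed higher and Rbp4 lower, both past the threshold, in all 19 alternative fits (Aldh1b1 log2 fold change 0.86 to 1.06, adjusted p 2.3e-05 to 0.00987; Rbp4 -0.73 to -0.54, adjusted p 0.000237 to 0.0314). Aldh2 and Aldh3a2 kept their direction and passed in none of the 19. The replicate numbers were not treated as pairs, since same-numbered livers correlated at 0.034 to 0.44 in their deviations and 4 of 6 pairs were under 0.1. With the replicate block, 2 members were higher, since Aldh1a7 also passed (0.31, adjusted p = 0.0495), and the Aldh1a7 share differed by 5.7 points with an exact permutation p of 0.0625. Without both replicate 1 libraries 2 members were lower, since Aldh1a1 passed. Leaving out 1 library at a time gave 1 to 2 members lower, with 2 only without iTgMir483 replicate 1. All genes past the threshold numbered 1470 with a fold over 1.5 added. The directions that turned were all uncalled. Adh1 was at -0.04 with limma-voom, -0.04 with the replicate block and -0.13 without both replicate 1 libraries, and at -0.25 to 0.17 with 1 library left out. Adh4 was at -0.0027 with limma-voom and at -0.43 to 0.5 with 1 library left out, and Adh5 at -0.1 to 0.03. The cause was not tested for these. The lowest count of a member in any library was 464, for Adh4, and no fit at matched depth was made.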
